A study of Mus musculus with 8 samples.

Results

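Promoters at which sites of the transcription factor E2f3 were listed in crypt cells of both genotypes, and in villus cells of neither, numbered 537. They were found among 4371 E2f3 regions that lay within 1 kb of a protein-coding start site and away from Myc sites, of which they made up 12.3%. Their members were chosen from the site lists themselves. E2f3 sites within 250 bp of any Myc site were set aside, the remaining sites of the 4 E2f3 libraries were chained into regions wherever neighbours were at most 250 bp apart, and a region was kept when it held sites of both crypt libraries and of no villus library. Presence in the crypts and absence from the villi are therefore what the regions were selected on, and are given here as a description.

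The data came from ChIP-exo-seq, in which DNA pulled down with a protein is digested by an exonuclease as far as the crosslink, so that a binding event can be placed near a single base. Intestinal crypt cells and villus cells were taken from wild type mice, called control here, and from Rb KO mice, called Rb-deficient here, in which Rb was deleted through Ah-cre, an inducible Cre recombinase used in the intestine. The background of all mice was mixed, from C57BL/6, 129 and FVB/N, and no age is stated. E2f3 and Myc were each precipitated from all 4 kinds of cells, which gave 8 groups of 1 library, so no difference between groups has a replicate check and no p-value is given. The deletion of Rb and the identity of the cells cannot be checked in lists of binding sites.

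The E2f3 lists of the crypts held 32666 sites for control and 27396 for Rb-deficient mice, and those of the villi 7405 and 14843. Of all these, 15097 sites (18.3%) lay away from Myc sites. The control crypt Myc list, with 159181 sites, was far longer than the 3 other Myc lists, which held 4119 to 31397. Sequencing depth is unknown, so a site missing from a short villus list was not listed, which does not show that E2f3 was absent. When each E2f3 list was cut to its 7405 highest-scored sites, 65 regions met the rule in place of 537. Of these 65, 35 were among the 537 and the other 30 did not meet the rule in the full lists. How many of the 30 had a villus site there was not counted.

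E2f3 belongs to the E2F family, whose members bind promoters of genes for DNA replication and cell division. The retinoblastoma protein Rb binds several E2F proteins and holds their target genes down until cells are driven into the cycle. In the intestine, cells divide in the crypts and stop dividing as they move up onto the villi, where they work as absorptive or secretory cells. The core of the DNA element that E2F proteins recognise is a run of C and G that often follows a short run of T.

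Letters from the mouse genome at 9 of the regions show the form TTCCCGC of the element at the site. They were chosen because an E2F motif (TTCCCGC, the variant TTCGCGC, the variant TTGCCGC or the variant TTGGCGC, on either strand) lay exactly at the position of the E2f3 sites and both crypt libraries placed their best site at the same base. Each is the plus strand of mm9, 5′ to 3′, centred on the site, and capitals mark the motif, which reads GCGGGAA where it lies on the minus strand. Windows that touch an untranslated region are kept to 29 bases and the others to 61.
Taok2, chr7:134028579-134028639: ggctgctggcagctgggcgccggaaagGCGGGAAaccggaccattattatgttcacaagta
Twistnb, chr12:34115377-34115437: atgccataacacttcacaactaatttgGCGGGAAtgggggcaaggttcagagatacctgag
Taf1, chrX:98728141-98728169: gtattttttctTTCCCGCccatgggcccg
Pola1, chrX:90877582-90877642: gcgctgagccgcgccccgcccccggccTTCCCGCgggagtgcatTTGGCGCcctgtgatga
Rnaseh2b, chr14:62951150-62951210: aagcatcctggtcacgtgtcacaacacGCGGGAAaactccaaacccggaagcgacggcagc
Hat1, chr2:71227680-71227740: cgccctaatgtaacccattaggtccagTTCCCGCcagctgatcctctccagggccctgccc
Nup188, chr2:30142365-30142425: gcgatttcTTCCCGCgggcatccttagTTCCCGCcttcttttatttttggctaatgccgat
Hes1, chr16:30064932-30064992: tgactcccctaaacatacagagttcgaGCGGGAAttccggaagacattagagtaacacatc
Slc17a5, chr9:78435912-78435972: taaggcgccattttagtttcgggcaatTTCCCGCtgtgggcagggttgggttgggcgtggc

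A larger share of the regions had no such motif within 50 bp, and 8 of these are shown because they share a shorter core at the site. In these windows capitals mark CCCGC, or GCGGG where it lies on the minus strand, within 5 bp of the position. In 6 of the 8 the best sites of both crypts fell on the same base, in Spc24 they lay 1 bp apart, and in Psmd12 5 bp apart.
Zfp160, chr17:21145825-21145885: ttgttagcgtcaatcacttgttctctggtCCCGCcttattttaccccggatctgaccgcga
Zfp110, chr7:13419978-13420038: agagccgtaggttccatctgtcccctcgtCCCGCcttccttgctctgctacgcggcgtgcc
Srsf2, chr11:116714603-116714663: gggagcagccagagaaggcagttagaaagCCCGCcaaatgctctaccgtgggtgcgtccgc
Gata5, chr2:180069684-180069744: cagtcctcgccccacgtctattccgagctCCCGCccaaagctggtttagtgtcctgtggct
Psmd8, chr7:29965716-29965776: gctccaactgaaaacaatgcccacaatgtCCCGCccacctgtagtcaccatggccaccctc
Psmd12, chr11:107340656-107340716: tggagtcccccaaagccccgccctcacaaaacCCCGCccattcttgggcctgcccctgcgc
Utp6, chr11:79775898-79775926: gtgcttcgtaagtCCCGCcttttccgctt
Spc24, chr9:21564732-21564760: cgccgagtccgaaCCCGCgcaaattcgtc

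An E2F motif lay within 50 bp of 228 of the 537 regions (42.5%, exact Clopper-Pearson 95% interval 38.2 to 46.8). The same search found one at 36% of all 4371 promoter regions, at 4.81% of the 45974 protein-coding start sites, and at 0.838% of windows 2 kb to each side of the 537 regions. Where the motif was present, its centre lay at the very position of the region in 176 of 228 cases (77.2%). The caller that placed the events may have read the sequence, so placement on the motif is not independent of it. All intervals here cover counting error only, since regions of 1 set of libraries are not replicates.

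The shorter core was more widespread. CCCGC lay within 5 bp of the position in 402 regions (74.9%, interval 71.0 to 78.5), against 10.7% at points 50 bp to each side. Among the 309 regions with no E2F motif within 50 bp it was present in 203 (65.7%), against 11.0% at the side points. Where such a region also had its best sites at the same base in both crypts, 145 of 149 (97.3%) had the core. Promoter regions that also held Rb-deficient villus sites had the core within 5 bp in 600 of 719 (83.4%). Those with sites in all 4 libraries had it in 407 of 467 (87.2%). The side points of these classes had 11.4% and 9.96%. The core was therefore not particular to the regions without villus sites. This core was chosen after the sequences had been seen. If the caller read the sequence, the core at the position and the shared base both depend on how it placed the sites.

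The chaining of sites within 250 bp limits how far apart the sites of both crypts can lie in these regions. Exactly 1 site of each crypt library and no other made up 514 of the 537 regions (95.7%). The best sites of control and Rb-deficient crypt fell on the same base in 336 regions (62.6%, interval 58.3 to 66.7), within 10 bp in 404 (75.2%) and over 100 bp apart in 24 (4.47%). The largest distance was 248 bp. With an E2F motif the best sites coincided in 187 of 228 regions (82.0%), and without one in 149 of 309 (48.2%). If the caller read the sequence, this split is not independent of the motif. The best crypt sites shared a base in 61.1% of the 719 promoter regions that also held Rb-deficient villus sites and in 78.8% of the 467 with sites in all 4 libraries. The difference from the latter was −16.2 percentage points (Newcombe 95% interval −21.7 to −10.6). Among regions above the median crypt rank, 42.5% of the 87 without villus sites and 79.0% of those with sites in all 4 libraries shared a base. Below the median, which holds 450 of the 537, the shares were 66.4% and 76.7%. The difference there was −10.3 points, with an interval from −21.4 to 4.79.

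Most regions lay upstream of the nearest protein-coding start site, though an upstream position can be annotated as an intron, as at Hes1. Upstream positions made up 331 of 537 (61.6%), and 237 regions (44.1%) lay within 100 bp of the start site. The commonest place was 1 to 100 bp upstream, with 167 regions (31.1%), followed by more than 100 and up to 500 bp upstream, with 142 (26.4%). By annotation, 248 positions (46.2%) lay outside genes, 153 (28.5%) in introns, 106 (19.7%) in untranslated regions and 22 in coding exons. The regions were spread over 21 chromosomes, with 51 on chromosome 11, 48 on chromosome 2 and 47 on chromosome 7, and 1 lay on the mitochondrial chromosome. Of the 537 regions, 419 (78.0%) had the GC content and CpG frequency of a CpG island over 150 bp to each side, at least 50% GC and a CpG ratio of at least 0.6, against 48.0% of all start sites.

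**Figure D1:**
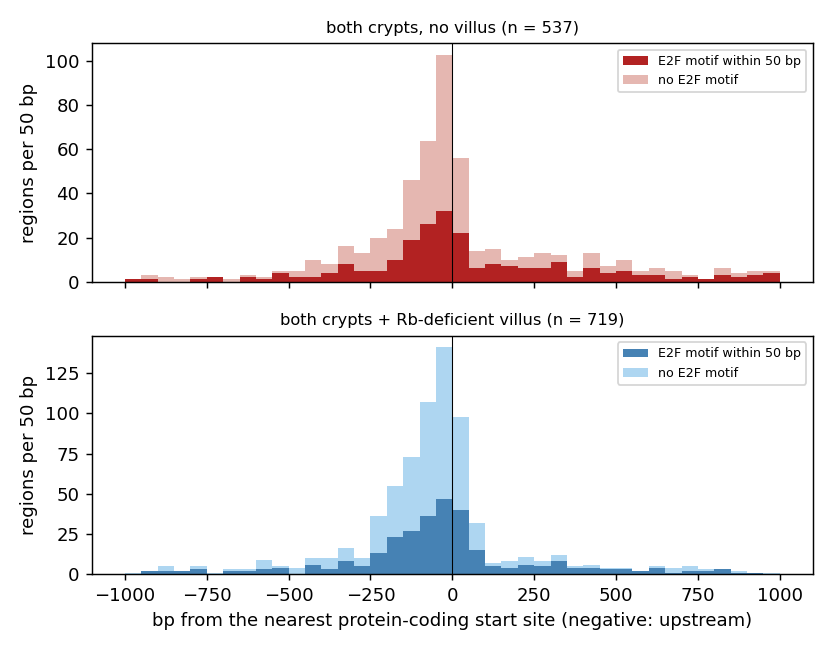
Position of the regions relative to the nearest protein-coding start site, in 50-bp bins. The x axis gives bp from the start site, negative upstream, and the y axis the number of regions per bin. The upper panel shows the 537 regions without villus sites and the lower panel the 719 regions that also held Rb-deficient villus sites, and the dark part of each bar counts regions with an E2F motif within 50 bp. In both panels the highest bin ends at the start site, and 44.1% of the upper and 52.6% of the lower regions lay within 100 bp of it.

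The limits of the selection fell among regions that lie close together. Farthest from a start site inside the limit were Arhgef26 at 991 bp, Myst3 at 985 bp and Khdrbs1 at 984 bp downstream. Just outside it, regions of the same libraries lay 1002 bp upstream of Magi1, 1003 bp downstream of the start of Mcm9 and 1015 bp upstream of Scgb3a1. Mcm9 also had another region inside the limit, which is among the 537. The closest villus E2f3 site was 254 bp from the Nup188 region, and another lay 264 bp from that of Grinl1a. A villus site lay within 500 bp of 28 regions (5.21%) and within 1 kb of 65 (12.1%), and the median distance to the nearest villus site was 29564 bp. The nearest Myc site lay a median of 3589 bp away and within 1 kb for 88 regions (16.4%).

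E2f3 sites in these regions ranked low in both crypt lists. The authors' score, whose meaning and scale are not stated, ran from 2 over a median of 6.98 to 112 in control crypt. In Rb-deficient crypt it ran from 2 over a median of 7.84 to 226. Scores are set side by side as deposited, and ranks are compared as percentiles within each list. The median percentile of the best site was 33.2 in the control crypt list (quartiles 15.5 and 55.8) and 39.6 in the Rb-deficient crypt list (quartiles 19.0 and 62.4). In 292 regions (54.4%) it was under 50 in both lists, and in 9 (1.68%) it was over 90 in both. Regions that also held Rb-deficient villus sites had medians of 59.0 and 74.8, and those with sites in all 4 libraries 94.4 and 96.2.

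**Figure D2:**
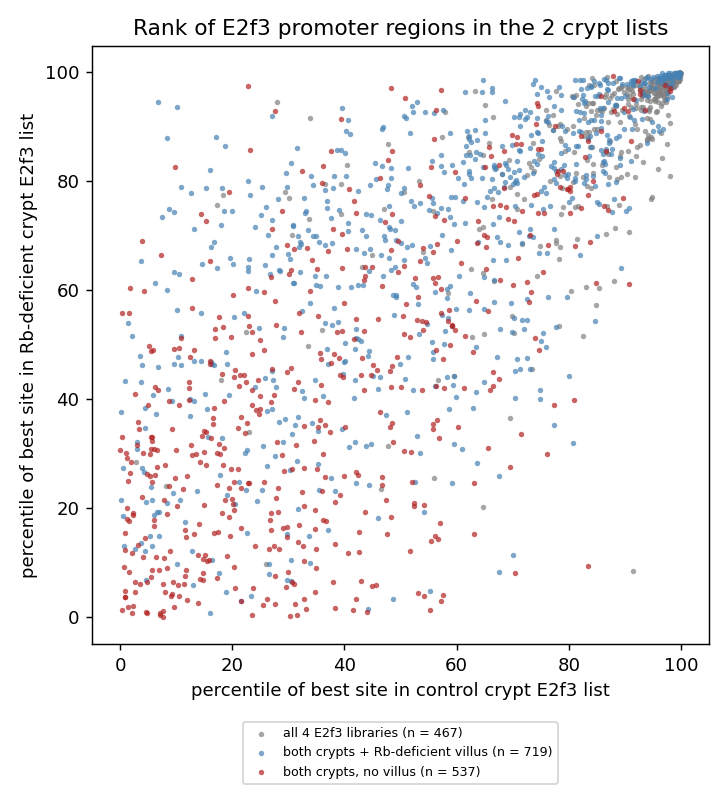
Percentile of the best E2f3 site of each promoter region within the control crypt list (x axis) and within the Rb-deficient crypt list (y axis). Each point is a region: red, both crypts and no villus (537); blue, both crypts and Rb-deficient villus (719); grey, all 4 E2f3 libraries (467). The red points gather at the lower left, with median percentiles of 33.2 and 39.6, and the grey points at the upper right, with medians of 94.4 and 96.2.

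The share of promoters without villus sites varied with rank in the crypts. Of the 1805 promoter regions with sites of both crypts, 29.8% had no villus site. When the 1805 were ranked by the lower of the percentiles in the 2 crypt lists and divided into 5 classes of 361, the share was 2.22% in the highest class, then 10.8%, 27.1% and 44.0%, and 64.5% in the lowest (interval 59.4 to 69.5). Of the 537 regions, 8 were in the highest class and 233 were in the lowest. The part of low rank and short villus lists in the absence of villus sites was not tested beyond these values and the equal list length above.

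**Figure D3:**
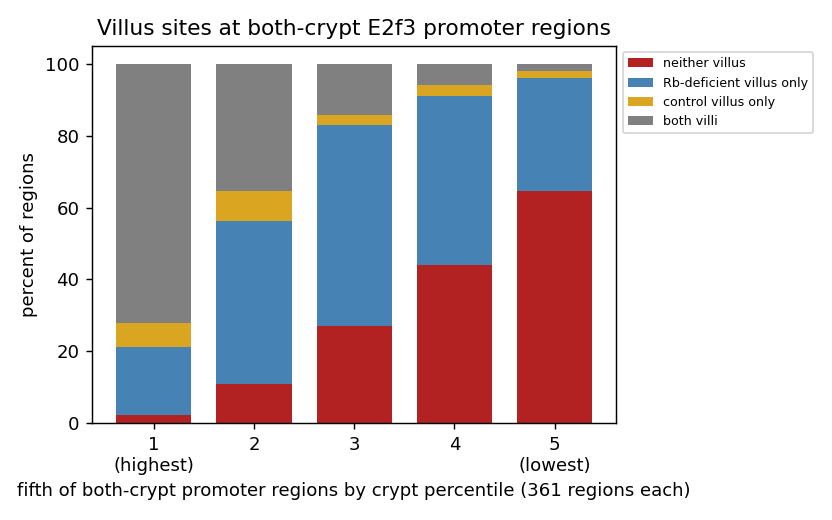
Villus sites at the 1805 promoter regions with sites of both crypts, in 5 classes by crypt percentile (x axis, 1 highest, 361 regions each). The y axis gives the percent of regions, and each bar is divided by the villus libraries that also held a site. Regions with neither villus library rise from 2.22% in the highest class to 64.5% in the lowest, while regions with both villi fall from 72.0% to 1.94%.

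The 10 regions highest in crypt percentile comprise the 9 over the 90th percentile in both crypts and the next in rank, and their genes have varied roles. At Dscc1, part of a clamp loader that acts in sister chromatid cohesion, the best scores were 92.4 for control and 107 for Rb-deficient crypt, in a region of 2 sites per library centred 131 bp upstream of the start on chromosome 15. Taok2, which encodes a protein kinase of the TAO family, had 112 and 92.2 at a single base 392 bp upstream. Twistnb, a subunit of RNA polymerase I, had 111 and 83.2 at a single base 918 bp into the gene, in an intron. Both hold the full motif printed above. The Dscc1 position, 54922177, is the median of 4 sites, and its best sites at 54922038 and 54922069 lay outside the window searched for motifs.

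Taf1, the largest subunit of the general factor TFIID, followed with scores of 57.6 in control and 53.6 in Rb-deficient crypt at a base 57 bp downstream of its start on chromosome X. For Sfswap, a splicing regulator, the values were 53.3 and 86.6, and for Ppm1d, a phosphatase that acts on p53 signalling, 52.9 and 76.2. The sites of both libraries lay 11 bp apart at Sfswap and 15 bp apart at Ppm1d. Ranks 7, 8 and 10 were held by 2610002D18Rik (51.5 and 134), by Mepce (48.1 and 67.0), which caps a regulatory small nuclear RNA, and by Fam123b (43.0 and 56.8), a regulator of Wnt signalling. E2f1 itself, the founding E2F gene, was ninth.

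At E2f1 the control crypt site scored 45.0 at base 154395606 of chromosome 2 and the Rb-deficient crypt site 53.3 at base 154395581, 25 bp apart. The window between them, centred at the midpoint 35 bp downstream of the start in the untranslated region, is given because the factor belongs to the same family, and no motif is complete within its 29 bases.
E2f1, chr2:154395579-154395607: cctgcaaagtccgggccacttttacgcgc
An E2F motif lay 14 bp from the midpoint, at the edge of that window. The nearest villus E2f3 site was 19096 bp away, and no villus site lay within 1 kb of any E2f1 start.

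Promoters called divergent here, where genes on opposite strands start within 1 kb of the position, were 60 of the 537 (11.2%), against 13.2% of all 4371 regions. Whether the starts point away from each other was not checked. The highest in rank were A930005H10Rik with Dph5 (scores 37.8 in control and 52.7 in Rb-deficient crypt), Gen1 with Smc6 (37.3 and 226) and Srsf2 with Mfsd11 (33.4 and 71.9). Gen1 cuts the crossed DNA strands left by recombination, and Smc6 belongs to a complex that keeps chromosomes intact during repair. The Rb-deficient crypt score of the Gen1 region was the highest among the 537. A cell cycle homology region (CHR; TTTGAA or TTCGAA), an element of promoters active late in the cycle, covers the midpoint of the sites there and is in capitals.
Gen1, chr12:11272574-11272602: cggcagtaatTTCGAAtccagcgccttct

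Counted by gene, 592 protein-coding genes (2.66% of 22232) had a start site within 1 kb of one of the regions, and 530 were the nearest gene. Of the 1952 genes with a promoter region of both crypts, these were 30.3%. The counts of the gene lists below are to be read against both shares. Another E2f3 site of a villus library lay within 1 kb of a start of 85 of the 592 genes (14.4%), in control villus for 44 and in Rb-deficient villus for 73, either near Myc sites or in other regions. Arhgef26, Gapdh, Hspd1, Hspe1, Khsrp, Kpnb1, Rfx2 and Zc3h10 had 2 of the regions each, of which Hspd1 and Hspe1 share theirs.

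Among DNA replication genes, 8 of 62 had such a region (12.9%, interval 5.74 to 23.9), or 8 of the 45 with a region of both crypts. Of the 62, 27 had a region with sites in all 4 libraries and 14 one with Rb-deficient villus sites. A gene can have several, so these counts can include some of the 8. After Dscc1 came Pola1, the catalytic subunit of DNA polymerase alpha, with scores of 11.7 in control and 24.1 in Rb-deficient crypt at a base 118 bp upstream of its start. Rpa1, the large subunit of the single-strand binding protein, had 7.89 and 18.1, and Rnaseh2b, part of the enzyme that removes ribonucleotides from DNA, had 5.65 and 13.0. Orc4, Pold3, Dbf4 and Dna2 completed the 8. At Pola1 and Rpa1 the best sites of both libraries shared a base. Pola1, Rnaseh2b, Pold3 and Dna2 had a villus E2f3 site elsewhere within 1 kb of a start, so 4 of the 8 genes had none.

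Nucleotide synthesis contributed 3 of 38 genes: Gmps, which makes GMP, Tyms, which makes thymidylate, and Gart, of purine synthesis. Their scores in control and Rb-deficient crypt were 7.94 and 9.72 at Gmps, 2.96 and 8.23 at Tyms, and 9.58 and 2.80 at Gart. All were thus under the 50th percentile in both lists. Gmps and Tyms had a villus site elsewhere at the promoter.

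The list of Rb and E2F pathway genes held 3 of 45, E2f1, Fbxo5 and E2f8. Fbxo5, an inhibitor of the ubiquitin ligase that drives mitotic exit, had 20.8 in control and 22.7 in Rb-deficient crypt, 827 bp into the gene. E2f8, a repressor of the E2F family, had 10.8 and 10.6, with the sites 54 bp apart about 614 bp upstream. Fbxo5 had a villus E2f3 site elsewhere at the promoter in Rb-deficient mice, E2f8 had such sites in both genotypes, and E2f1 had none.

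Of the mitotic genes, 7 of 139 (5.04%) had such a region, or 7 of the 63 (11.1%) with a region of both crypts, beside 37 with a region shared with Rb-deficient villus. Esco1, which acetylates cohesin, had scores of 25.5 in control and 23.5 in Rb-deficient crypt at adjacent bases. Spc24, part of the kinetochore complex that grips microtubules, had 20.8 and 43.8. Anapc13, of the anaphase-promoting complex, had 13.0 and 19.1, in a divergent promoter with the centrosome gene Cep63. The cohesin gene Stag2 had 11.6 and 12.7, and Kif11, Kif18a and Cenpk made up the rest. Only Cenpk had a villus site elsewhere at its promoter.

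DNA repair genes were 5 of 137, namely Gen1, Smc6, Ddb2, Atm and Fancc, and the first 2 share a region. All but Ddb2, 4 of the 5, had a villus E2f3 site elsewhere at the promoter, which for Gen1 and Smc6 lay 372 bp from the region. Ddb2, which recognises ultraviolet damage, had 17.4 and 32.2 at sites 9 bp apart over the motif TTCGCGC. Atm, the kinase that signals double-strand breaks, had 16.0 and 17.3 in the promoter it shares with the histone gene activator Npat. Chromatin genes were 4 of 141: Ezh2, the methyltransferase of the Polycomb complex, with 13.3 and 11.9, the histone acetyltransferase Hat1 with 11.4 and 13.9, Ing3 with 7.78 and 6.78, and Kdm2b with 4.83 and 3.22. The Kdm2b sites lay 216 bp apart. Ezh2 and Ing3 had a villus E2f3 site elsewhere at the promoter.

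RNA splicing and processing gave the longest list, 14 of 159 genes (8.81%, interval 4.90 to 14.3) and 14 of the 55 with a region of both crypts. Srsf2, a serine and arginine rich splicing factor, ranked first with 33.4 in control and 71.9 in Rb-deficient crypt. Hnrnph1, which binds G-rich RNA, had 15.8 and 27.9, the RNA helicase Ddx5 had 9.14 and 14.6, and Hnrnpab had 12.6 and 7.20. The other genes were Sf3b1, Dhx8, Hnrnph3, Sf3b5, Sf3a1, Hnrnpr, Srsf6, Thoc2, Son and Lsm1. Of the 14, 10 had no villus E2f3 site at the promoter. The Son region is the one counted for Gart, since these genes start within 1 kb of it on opposite strands.

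Ribosome biogenesis and RNA polymerases contributed 5 of 137 genes, Exosc8, Polr2j, Pno1, Utp6 and Gnl2, and none of the 5 had a villus E2f3 site elsewhere at the promoter. Utp6, of the complex that first processes ribosomal RNA, had 5.26 in control and 32.5 in Rb-deficient crypt at 1 base 20 bp upstream. Nuclear transport gave 5 of 70: Xpo6 (11.5 and 11.3), the importin Kpnb1 (8.70 and 21.6), the pore subunit Nup188 (11.3 and 4.76), Lmna (3.84 and 6.14) and Tnpo3. Centrosome and cilium genes were 5 of 84, among them Tctn3, Cep63, Ift46 and Wdr34.

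Several regulators of intestinal cells were in the set. Of the list of secretory and intestinal transcription factors, 5 of 52 (9.62%, interval 3.20 to 21.0) had such a region, or 5 of the 9 with a region of both crypts. Vdr, the vitamin D receptor, had 10.3 in control and 9.19 in Rb-deficient crypt, Gata5 6.10 and 5.18 at a single base, Zbtb7b 5.33 and 7.72, and Prdm1, a repressor that acts in the suckling gut, 7.55 and 5.08. The fifth was Cdx2, which specifies intestinal epithelium, with 2.18 and 4.39 at sites 139 bp apart, near the lowest score listed. All 5 were under the 50th percentile in both lists. Zbtb7b had a villus E2f3 site elsewhere at the promoter in control mice, 586 bp from the region. Vdr, Gata5, Prdm1 and Cdx2 had none. No E2F motif lay within 50 bp of the positions of Vdr, Gata5, Zbtb7b and Prdm1. Those of Vdr, Zbtb7b and Prdm1 are midpoints between sites 22, 27 and 98 bp apart, whereas the Gata5 sites share a base.

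Of 65 stem cell, crypt and Wnt genes, 3 had such a region. Hes1, a repressor switched on by Notch that favours the absorptive fate, had 29.9 in control and 35.6 in Rb-deficient crypt at 1 base 464 bp upstream, on the motif printed above. Tcf7, a factor of the Wnt pathway, had 5.23 and 11.0, and the receptor gene Fzd4 had 2.75 and 6.15. None of the 3 had a villus E2f3 site within 1 kb of a start. No gene of the 45 in the villus enterocyte list had such a region (interval up to 7.87%), and only 2 of them had a region of both crypts at all, too few for a contrast with other lists. None of 30 immune and 29 stromal genes had one, but none of them had any E2f3 promoter region away from Myc sites. Those lists therefore give no contrast either.

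Among families taken by symbol, solute carriers had 12 of 353 genes, or 12 of the 29 with a region of both crypts (41.4%). Slc25a11, the mitochondrial carrier of oxoglutarate, had 21.1 in control and 32.9 in Rb-deficient crypt, Slc17a5 12.4 and 15.9, Slc15a4 10.3 and 32.1, and the glutamine transporter Slc1a5 9.08 and 10.8. Zinc finger genes had 11 of 429, led by Zfp472 (34.7 and 32.1) and Zfp160 (23.8 and 27.1). Translation initiation factors had 4 of 58, led by Eif6 (35.6 and 20.3). Of 82 cytosolic ribosomal protein genes only Rps19 (6.51 and 2.89) was included. None of 1113 olfactory receptor genes was, and none had any E2f3 promoter region away from Myc sites, so that family gives no contrast.

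**Figure D4:**
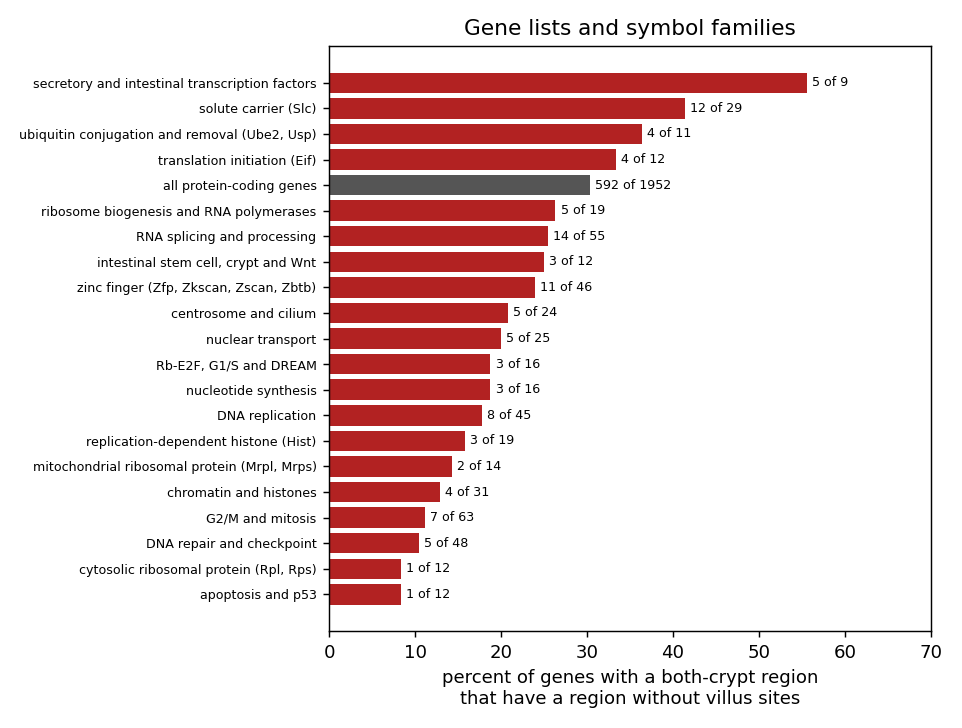
Percent of the genes with a Myc-free E2f3 promoter region of both crypts that have a region without villus sites (x axis), for each gene list or symbol family (rows). Numbers beside the bars are genes, and the dark bar is all protein-coding genes, 592 of 1952. The lists of DNA replication (8 of 45), mitosis (7 of 63) and DNA repair (5 of 48) lie to the left of the dark bar, and intestinal transcription factors (5 of 9) and solute carriers (12 of 29) to the right, with few genes in most lists. Lists with fewer than 9 genes with such a region are not drawn.

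Sequence around the sites, which the selection did not use directly, was compared with promoter regions of both crypts that also had villus sites. The E2F motif was present at 42.5% of the 537 regions, 41.9% of the 719 shared with Rb-deficient villus alone and 73.9% of the 467 with sites in all 4 libraries. The difference from the regions of all 4 libraries was −31.4 percentage points (Newcombe 95% interval −37.0 to −25.5), and from those shared with Rb-deficient villus 0.594 points (−4.90 to 6.11). Since the 537 ranked lower in the crypts, the first was repeated above and below the median crypt percentile of all 1805. It was −23.0 points (−34.1 to −12.0) among the upper-ranked regions, which include 87 of the 537, and −24.4 (−37.7 to −8.81) among the lower-ranked, which include 450. This split matched rank only in part. In the 5 classes by crypt percentile, highest first, 75%, 51.3%, 48.0%, 38.4% and 40.3% of the regions without villus sites had the motif. Of the regions of all 4 libraries, 79.6%, 68.8%, 64.7%, 57.1% and 71.4% had it. The highest class held 8 of the former and 260 of the latter, and the lowest held 233 and 7.

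A GC box (GGGCGG), which Sp-family factors bind and which can overlap E2F motifs in C-rich stretches, lay within 50 bp of 61.1% of the 537 regions and 46.0% of the regions of all 4 libraries, against 25.1% of all start sites. The difference was 15.0 points (8.87 to 21.1). It was 3.43 points among the upper-ranked regions, with an interval from −7.87 to 14.8, and 16.8 points (1.56 to 31.5) among the lower-ranked. From the regions shared with Rb-deficient villus the difference was 4.89 points (−0.622 to 10.3).

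The CCAAT box and the CHR, which accompany each other in promoters of late cell cycle genes, were scarcer than at the regions shared with Rb-deficient villus. A CCAAT box (CCAAT) lay within 50 bp of 12.5% of the 537 and of 22.7% of the 719, a difference of −10.2 points (−14.3 to −5.97). A CHR lay near 21 of the 537 (3.91%) and 80 of the 719 (11.1%), a difference of −7.22 points (−10.1 to −4.32). All start sites had 11.6% and 4.52%. The windows 2 kb to each side of the 537 had 13.7% and 11.2%. A GC box lay in only 1.96% of these windows, so their sequence is unlike that of the promoter regions. Flanks of the 719 were not searched. Among the upper-ranked regions the CHR was present at 2 of 87 regions against 59 of 330 (−15.6 points, −20.4 to −8.75), and the CCAAT box at 11 of 87 against 99 of 330 (−17.4 points, −24.8 to −7.57). Among the lower-ranked the differences were −1.18 points for the CHR (−4.28 to 1.75) and −4.01 for the CCAAT box (−8.86 to 0.747), and whether these differ from the upper-ranked values was not tested.

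**Figure D5:**
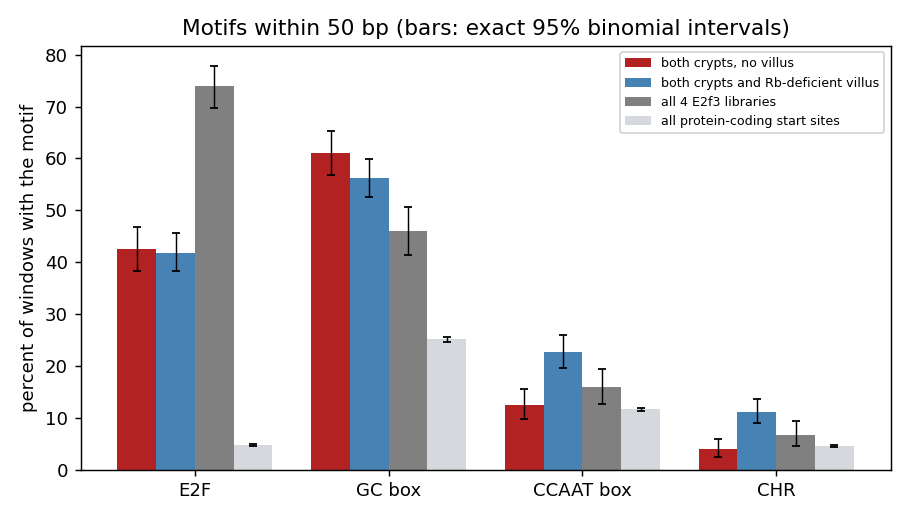
Percent of windows with a motif within 50 bp of the position (y axis), for E2F, GC box, CCAAT box and CHR (x axis). Bars stand for the 537 regions without villus sites, the 719 shared with Rb-deficient villus, the 467 with sites in all 4 libraries and all 45974 start sites, and error lines are exact 95% binomial intervals. The E2F motif is at 42.5%, 41.9% and 73.9% of the 3 region classes and 4.81% of start sites, and the CHR at 3.91%, 11.1% and 6.64% of the classes.

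The selection did not read the E-box, divergent starts or CpG content either. It did drop sites near Myc sites from every region class, which may bear on their E-box shares. An E-box (CACGTG), the element bound by Myc, lay near 2.61% of the 537 regions, 3.20% of those shared with Rb-deficient villus and 2.57% of those of all 4 libraries, beside 2.93% of all start sites. Divergent promoters made up 11.2% against 12.9% and, for the regions of all 4 libraries, 84 of 467, and the difference from the last was −6.81 points (−11.3 to −2.45). It was −0.683 points among the upper-ranked regions (−8.29 to 9.18) and −8.60 among the lower-ranked (−22.8 to 0.791). Positions within 100 bp of the start site made up 44.1% against 52.6% of the regions shared with Rb-deficient villus, a difference of −8.44 points (−13.9 to −2.85). It was −19.5 points among the upper-ranked regions (−30.2 to −7.74) and −4.61 among the lower-ranked (−11.3 to 2.16). CpG-island-like sequence surrounded 78.0%, 77.9% and 78.6% of the 3 classes.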

How the data were processed

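ChIP-exo-seq of E2f3 and Myc gave 8 libraries in 8 groups. Bowtie2 2.2.1, MACS2 2.0.10 and the build mm9 were used, per the submitters' processing notes. The names of the deposited files say that GEM events overlapping MACS2 peaks were kept, from merged data with duplicates. What was merged, GEM's version and any thresholds are not stated. The deposited score per site runs from 2 to 999, and no unit is stated for it. It was used to rank sites within a list and, in 1 alternative, as a minimum of 10 in every list. Scores of both crypt libraries are printed side by side as deposited. Positions were taken to count from 0, since adding 1 put 72.3% to 84.3% of E2f3 sites with a motif on its centre.

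Regions were built as described with Python 3.11.15, numpy 2.4.6, scipy 1.17.1 and pysam 0.24.0, on NCBIM37 and GENCODE start sites of protein-coding transcripts (45974). A region's position is the median of its sites. The scripts were tested on simulated data. Shares carry Clopper-Pearson and differences Newcombe intervals, and no p-values were computed. Named genes are the 10 highest by crypt percentile, the lower of the 2 within-list percentiles, up to 4 per gene list by the same measure, and those nearest each limit. Genes beyond these, among them Cdx2, and the sequences printed were chosen after their values were seen. The regions and gene lists were chosen with earlier results of these data known.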

Additional observations from a re-analysis of the deposited data

How the results depend on the processing

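The number of regions stayed between 400 and 786 under 10 of the 11 alternatives for building them, and 65 were left at equal list length (7405 sites each). The share of both-crypt promoters without villus sites, 29.8%, became 32.0% with exclusion by the Rb-deficient crypt Myc list alone, 26.1% with no villus site within 1 kb, 36.2% with scores of at least 10 and 10.1% at equal list length. The E2F motif share, 42.5%, became 32.1% without the Myc exclusion, 52.5% with scores of at least 10, 55.4% at equal list length, 53.6% within 250 bp, and 74.9% for CCCGC within 5 bp, an alternative chosen after seeing the data. The divergent share, 11.2%, became 15.4% at equal list length. The other 36 values moved by less than their counting interval or by under 1.5 times. No paired analysis was possible because each group has 1 library and no replicate number. Intervals cover counting error only, and the unknown depth limits every statement of absence.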

Other observations

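In 4 of the 537 regions the best site ranked over the 90th percentile of the Rb-deficient crypt list and under the 50th of the control crypt list, and in none was it the reverse. Of the 537, 24 ranked over the 90th percentile in the Rb-deficient list and 11 in the control list, and 319 (59.4%) had the higher percentile in the Rb-deficient list. The 4 regions were singled out after their values were seen. At Opa1, which fuses the inner membranes of mitochondria, the scores were 5.20 in control and 102 in Rb-deficient crypt, at the same base 145 bp upstream. Kif11, the motor that pushes spindle poles apart, had 10.2 and 92.4 at bases 4 bp apart. Kif18a, a motor that limits the length of spindle microtubules, had 8.20 and 47.2 at adjacent bases. Aspm, a spindle pole protein of dividing progenitors, had 6.00 and 52.6 at bases 20 bp apart. Aspm alone of the 4 had other villus E2f3 sites at its promoter, in both genotypes and at 557 bp or more from the region. Their percentiles in the control and Rb-deficient crypt lists were 22.7 and 97.5 at Opa1, 48.3 and 97.0 at Kif11, 39.5 and 91.4 at Kif18a, and 27.7 and 92.8 at Aspm. Each list comes from 1 library, so these gaps have no replicate check.

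A CHR lay within 50 bp in 3 of the 4, Opa1, Kif11 and Aspm, and near 21 of all 537. Among the 24 regions over the 90th percentile of the Rb-deficient crypt list, 4 had a CHR and 11 an E2F motif. Of the 4, only Kif18a had an E2F motif. The Opa1 window also holds the shorter core CCCGC within 5 bp of the position, which is not in capitals. The windows that hold the elements are shown on the plus strand of mm9, with the CHR (TTTGAA, or TTCAAA on the minus strand) or the E2F motif of Kif18a in capitals.
Opa1, chr16:29579245-29579305: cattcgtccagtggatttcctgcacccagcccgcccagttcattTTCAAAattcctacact
Aspm, chr1:141351355-141351383: aTTTGAAccgagcaaaagcggctgggcta
Kif18a, chr2:109120873-109120901: gcccagcctctgGCGCCAAactgcgagtc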
